A study of Mus musculus with 48 samples.

Results

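The change in transcript levels over the whole course of adipogenesis was measured in 3T3-L1 cells that carried a control siRNA, by setting day 6 against day −2 of the differentiation protocol across all 24613 probes of an Illumina MouseRef-8 v1.1 BeadChip. The 6 arrays compared are 6 of the 48 in the series, 3 from day −2 and 3 from day 6, and were chosen by their siRNA and day alone. 3T3-L1 is an established mouse embryo fibroblast line that accumulates lipid and turns into adipocyte-like cells when it is given hormones at confluence. All 6 cultures were transfected with a pool of non-targeting siRNA at 50 nM. The 3 cultures of day −2 were harvested before any hormone was added. Those of day 6 received 0.5 mM IBMX with 0.25 µM dexamethasone at confluence for 48 h and, from day 0, insulin at 5 µg/ml with the PPARγ agonist rosiglitazone at 1 µM for another 48 h. Days are counted from the addition of rosiglitazone, so day −2 is the confluent, transfected fibroblast. The other 24 arrays of the series carry a PPARγ siRNA, and those of day −2 and day 6 are used below to show where the control course differs from the course under knockdown. The labels describe the 3 replicates of each group as independent and biological. No culture was kept without the hormones, so the effect of time at confluence and that of the hormones cannot be told apart.

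Adipogenesis starts when confluent preadipocytes meet glucocorticoid, a rise in cyclic AMP and insulin, re-enter the cell cycle for a short time and then leave it. The early factors C/EBPβ and C/EBPδ induce PPARγ and C/EBPα, and these turn on genes for lipid uptake, triglyceride synthesis, the lipid droplet, lipolysis and secreted hormones such as adiponectin. Alongside, genes of the fibroblast state, such as those of the contractile cytoskeleton, usually decline.

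Signals are the deposited mean bead intensities after background correction and rank-invariant scaling, and differences are on the log2 scale, day 6 minus day −2, with the standard error (SE) of the fit and 3 arrays per day. A probe was called when its Bonferroni adjusted p from limma was at most 0.05 over all 24613 probes. A probe was above background on an array when its detection p-value was under 0.01. Where a probe was below background on all arrays of 1 day, the true ratio has only a lower bound, written "at least N-fold". The bound sets the mean of the brighter day against the dimmest detectable signal of each array of the dimmer day, replaced by the probe's measured value on arrays where the latter exceeded it. Probes differ in their hybridization, so signals of different genes were not compared.

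Between 33.85 and 39.0% of probes were above background on the 6 arrays, with median deposited signals between 120.4 and 141.2. Arrays of 1 day correlated at between 0.938 and 0.996 and arrays of different days at between 0.891 and 0.950 (Pearson, across probes, which are not independent replicates). Replicate 3 stood apart from replicates 1 and 2 on both days, with the lowest share of probes above background on each day (35.39% on day −2 and 33.85% on day 6), and the replicate number was a block in the fit. No 2 arrays held identical values.

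Of the 24613 probes, 1537 were called (6.24%), 1011 of them higher on day 6 (4.11% of all probes) and 526 lower (2.14%). All of these changed in the same direction in the 3 replicate pairs. Rises were larger than falls. The median called rise was 1.06 and the median called fall −0.69, and over 2-fold there were 540 rises (2.19%) against 77 falls (0.313%). Over 4-fold there were 180 rises and 2 falls, and over 16-fold 49 rises and no fall, though falls of probes near background are compressed. Of the 1011 called rises, 793 were measured on both days, 187 came from below background on every day −2 array and 31 stayed below background throughout. Of the 526 called falls, 496 were measured on both days and 28 dropped below background on every day 6 array. Among the 9537 probes above background on at least 3 of the 6 arrays, here called detected, the median difference was −0.04. The balance of directions depended on the setting, since quantile normalization gave 978 rises and 806 falls, so that rises made up 54.8% of the calls in place of 65.8%. A fit of the 6 arrays alone, with fewer residual degrees of freedom, called 339 probes, of which 13 fell, and a fit without the replicate block called 794 (599 higher, 195 lower). Leaving out replicate 1 gave 676 calls (560 higher, 116 lower), leaving out replicate 2 gave 723 (569 and 154) and leaving out replicate 3 gave 1108 (807 and 301).

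**Figure D1:**
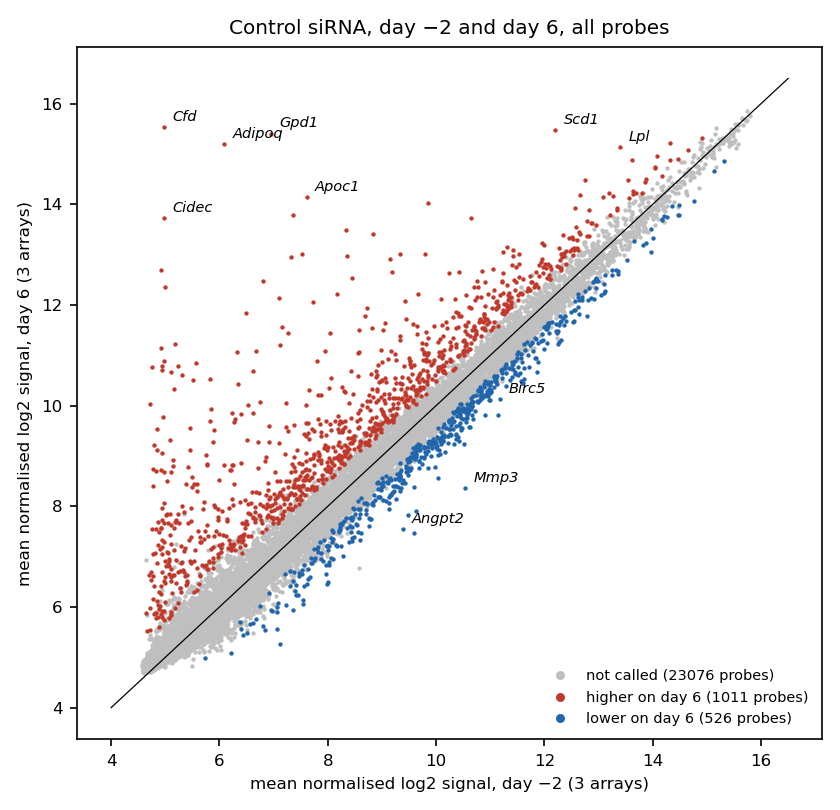
Mean normalised log2 signal of every probe on day −2 (x axis, 3 arrays) and day 6 (y axis, 3 arrays) under control siRNA, with 1011 probes higher on day 6 in red, 526 lower in blue and the line of equality in black. Rises reach far from the line, up to Cfd at 10.55, while the called falls lie in a narrow band below it.

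The labels were first checked against marker genes. PPARγ, the receptor targeted by the other siRNA, was represented by 3 probes. All 3 were called higher on day 6 under control siRNA. The brightest read 1067, 1024.5 and 1173 on the day −2 arrays and 4368, 4162 and 4749 on the day 6 arrays under control siRNA, with no overlap, a rise of 2.02 ± 0.11 (limma, adjusted p = 1.94e-15). In the cultures with PPARγ siRNA the mean level of this probe was lower than under control siRNA by 2.41 on day −2 and 2.33 on day 6 (log2). Of 12 adipocyte markers on the array, 10 rose, and 9 of the 12 were below background on all day −2 arrays. The 2 markers that were not called were Fabp4 (fatty acid binding protein 4, also known as aP2) and Cd36 (a fatty acid transporter). Fabp4 read 38.9, 38.3 and 45.5 on day −2 and 672, 197 and 92.9 on day 6, a difference of 2.50 ± 0.54 (limma, adjusted p = 0.976). The direction was the same in all 3 pairs, but the pairs ranged from 1.03 to 4.11. Cd36 behaved alike, with 21.4, 24.9 and 29.1 on day −2 and 271, 148 and 45.3 on day 6, a difference of 2.29 ± 0.47 (limma, adjusted p = 0.48). For both genes the day 6 array of replicate 3 was the lowest and was not above background.

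None of the 9 fibroblast markers was called at its brightest probe, and all 9 were above background on all 6 arrays. Col1a1, a chain of type I collagen, read 12392, 12194 and 19626 on day −2 and 13369, 12224 and 18588 on day 6, which overlap. Dlk1, the preadipocyte factor Pref-1, read 14523, 15571 and 15916 on day −2 and 13736, 13054 and 16309 on day 6, a difference of −0.10 ± 0.09 that was not called. The day 6 cultures thus carried strong adipocyte marker signal together with fibroblast marker signal near the day −2 level at the brightest probes. Acta2 fell by 1.14 at another of its probes. In RNA from whole cultures, fewer cells of a type and less RNA per cell cannot be told apart. Most probes for markers of other cell types were below background. Of their probes, 14 of 16 for macrophages, 13 of 14 for endothelium, 9 of 11 for skeletal muscle and 10 of 10 for epithelium were above background on none of the 6 arrays. Above background on all 6 arrays were 2 macrophage probes, 1 endothelial probe and 1 muscle probe. In these lists 1 macrophage probe and 1 muscle probe were called lower on day 6, and none was called higher. The summed macrophage signal was 809 to 1098 on day −2 and 740 to 916 on day 6, the summed endothelial signal 560 to 728 and 649 to 825, the summed muscle signal 626 to 734 and 481 to 677, and the summed epithelial signal 287 to 419 and 316 to 455. Ptprc, Pecam1, Myod1 and Epcam were below background on all 6 arrays.

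The largest rise was that of Cfd, which encodes adipsin (complement factor D), a serine protease secreted by adipocytes. Cfd read 28.6, 31.3 and 35.3 on the day −2 arrays, all below background, and 43831, 42808 and 56791 on the day 6 arrays. The groups were far apart, and the ratio was at least 560.4-fold (fitted difference 10.55 ± 0.20, limma, adjusted p = 2.03e-32). Adipoq, the gene of adiponectin, read 63.5, 59.9 and 83.5 against 42484, 36909 and 33928, a ratio of at least 445-fold. Cidec, whose product fuses and enlarges lipid droplets, read 29.6, 30.1 and 34.8 against 15436, 13765 and 11716, a ratio of at least 160.2-fold. Gpd1, the cytosolic glycerol 3-phosphate dehydrogenase that supplies the glycerol backbone of triglyceride, was above background on all 6 arrays and so allowed a measured ratio. It read 129.8, 129.8 and 114 on day −2 and 40960, 41725 and 47823 on day 6, a 349-fold rise (8.45 ± 0.14, limma, adjusted p = 2.09e-34).

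The 10 rises named here were ranked by the fitted difference, which for probes below background on day −2 is uncertain, so their order and membership are not settled by the bounds. After the 4 genes above came BC054059 (at least 78.4-fold) and Mrap, the accessory protein of the melanocortin 2 receptor (at least 61.7-fold). BC054059 is the array's name for a transcript that was not matched to a RefSeq symbol here. The paper gives it as adipogenin (SMAF1). Apoc1, an apolipoprotein, rose 92.1-fold from signals of 190.4, 229 and 171 to 18909, 17932 and 17189 and was measured on every array. Aatk, a membrane-anchored kinase, rose at least 26.9-fold, Wfdc21 (listed by the array as 1100001G20RIK) at least 28.4-fold and Ffar2, a receptor for short-chain fatty acids, at least 20.7-fold. Wfdc21 was the most uneven of these across replicates, with day 6 signals of 4622, 3936 and 759 and an SE of 0.47. All of the 10 genes were above background on every day 6 array, and none had overlapping groups.

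**Figure D2:**
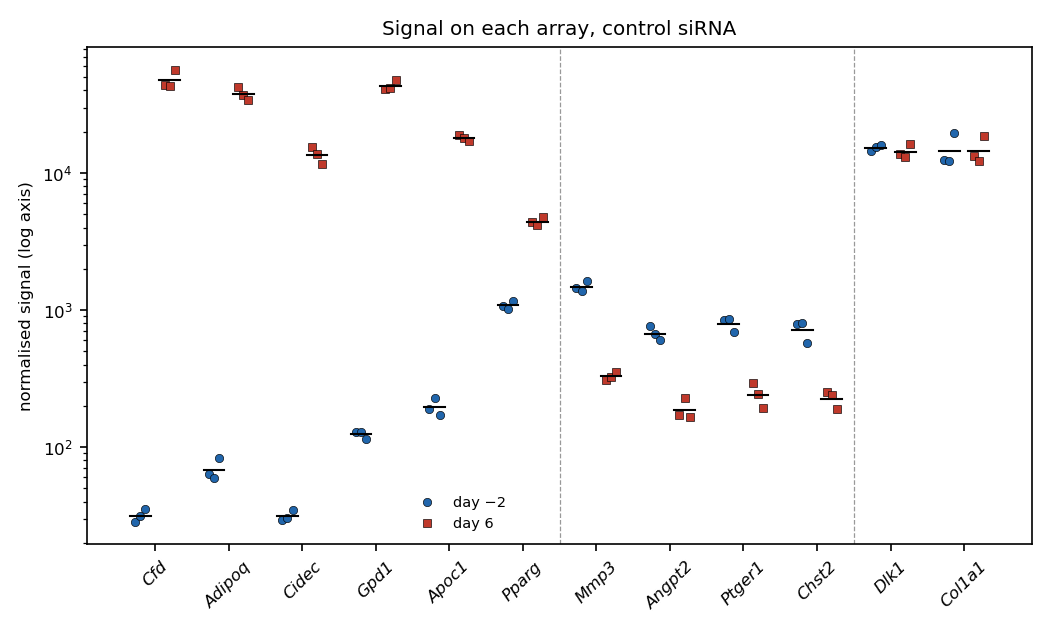
Normalised signal (log axis) of 12 genes on each of the 6 control arrays, with circles for day −2, squares for day 6 and bars at the mean of the log2 values. The groups do not overlap for the 6 genes that rose (left) or the 4 that fell (middle), and overlap for Dlk1 and Col1a1 (right).

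Genes were grouped into 27 lists by function, which together with 4 marker lists of other cell types took in 1029 probes and 246 of the 1537 calls. Counts below are of probes, some genes having several, and are to be read against the 4.11% of all probes that rose and the 2.14% that fell. Medians are over a list's detected probes, beside −0.04 for all detected probes.

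Of the 33 probes for adipocyte transcription factors, 11 rose and 1 fell, with a median of 0.44. Besides Pparg, Cebpa, the other central factor of the terminal program, was below background on day −2 (57.3, 46.4 and 61.8) and read 166, 177 and 266 on day 6, a ratio of at least 2.34-fold. Nr1h3, the oxysterol receptor LXRα, rose 11.1-fold (3.48 ± 0.13) and Klf15 5.92-fold (2.57 ± 0.26). Nr2f2, the nuclear receptor COUP-TFII, fell by 0.71 at its brightest probe, while its other 2 probes were below background on all 6 arrays.

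Secreted adipocyte proteins had the highest share of calls, 17 of 21 probes, all higher, with a median of 3.08. Besides Cfd, Adipoq and Apoc1, Retn (resistin) rose at least 2.49-fold and Angptl4, an inhibitor of lipoprotein lipase, 3.41-fold (1.77 ± 0.12). Of the 18 probes for lipid droplet proteins, 9 rose and none fell, with a median of 1.27. Plin1, the perilipin that coats the droplet and gates lipolysis, read 25, 27.6 and 34.4 on day −2 and 739, 699 and 798 on day 6, a ratio of at least 8.80-fold. G0s2, which inhibits the triglyceride lipase ATGL, rose 51.2-fold (5.68 ± 0.16), from 94.6, 113 and 129 to 5235, 5383 and 6605. Neither set of signals overlapped.

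Lipolysis and its control gave 12 rises and no fall among 22 probes, with a median of 4.07, or 2.77 with probes below background on day −2 set at their bounds. Pnpla2, the triglyceride lipase ATGL itself, rose 18.1-fold (4.18 ± 0.16), from 1029, 902 and 847 to 16848, 14535 and 19106. Lipe, the hormone-sensitive lipase, rose 12.3-fold (3.62 ± 0.15). Hcar2, the antilipolytic nicotinate receptor that the array lists as GPR109A, rose at least 12.3-fold, Pnpla3 at least 21.7-fold and the glycerol channel Aqp7 at least 7.04-fold. Lipases and genes that restrain them therefore rose in the same cultures.

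Among 30 probes for fatty acid uptake, binding and activation, 7 rose and none fell (median 0.61), with 4 rises each without replicate 1 or 2 and 3 each in the 6 arrays alone or without the block. Acsl1, an acyl-CoA synthetase, rose 21.3-fold (4.41 ± 0.16), Fabp5 6.44-fold and Lpl, the lipoprotein lipase, 3.34-fold (1.74 ± 0.10). Lpl was already above background on day −2, at 11957, 10253 and 10379, and read 36243, 35297 and 36902 on day 6. Triglyceride synthesis and glyceroneogenesis gave 7 rises and 1 fall among 22 probes (median 0.58). Besides Gpd1, the diacylglycerol acyltransferases Dgat2 (4.03 ± 0.13) and Dgat1 (3.08 ± 0.09), the pyruvate carboxylase Pcx (3.09 ± 0.13) and Agpat2 (2.50 ± 0.11) rose. Gpd2, the mitochondrial glycerol 3-phosphate dehydrogenase, fell by 0.52, opposite to its cytosolic counterpart.

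Fatty acid synthesis and NADPH supply gave 11 rises and no fall among 26 probes (median 0.47), with unequal sizes. Thrsp (Spot 14) rose at least 20.7-fold and Scd1, the stearoyl-CoA desaturase, 9.61-fold (3.26 ± 0.12), from 5128, 4968 and 4114 to 40640, 43315 and 52786. Taldo1, a transaldolase of the pentose phosphate pathway, rose by 1.67 ± 0.08. Fasn (fatty acid synthase) rose by only 0.80 ± 0.09 and Acly (ATP citrate lyase) by 0.60 ± 0.09, and the acetyl-CoA carboxylase Acaca was not called (−0.19 ± 0.12). Fasn read 8458, 7785 and 4009.9 on day −2 and 14688, 12016 and 7836 on day 6, so its groups overlapped across replicates although every pair was higher on day 6. Without replicate 1 or 2 the list had 6 calls each, and in the 6 arrays alone 4.

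Cholesterol synthesis was the metabolic pathway in which most probes moved, with 17 rises and no fall among 28 probes (median 1.06). Insig1, which holds the sterol sensor SCAP in the endoplasmic reticulum, rose 5.05-fold (2.34 ± 0.13), from 255, 207 and 247 to 994, 1175 and 1436. Tm7sf2, a sterol reductase, rose by 1.43 ± 0.12 and Pmvk, the phosphomevalonate kinase, by 1.41 ± 0.11. Sqle, the squalene epoxidase, read 6094, 5901 and 6342 on day −2 and 12253, 11400 and 12368 on day 6 (0.97 ± 0.08). Insig1, called at 2 of its 3 probes, and Sqle were above background on all 6 arrays, and their groups did not overlap. The fit of the 6 arrays alone called 7 probes of the list.

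Promoter sequences from RefSeq (mouse build GRCm38.p6) were searched for this pathway and for mitosis, below. The lists of DNA replication, oxidative phosphorylation and secreted adipocyte proteins were searched as well. The 250 bases before each annotated start were searched on both strands for CCAAT (read as ATTGG on the other strand), the box bound by the factor NF-Y. It was present in 37.5% of the 27025 genes with a promoter entry and in 39.4% of the 13496 such genes on the array. Of the 21 cholesterol genes on the array, 15 had an entry and 14 of these held CCAAT (93.3%). The stretches around the match nearest to the start are shown for the 3 called genes with the largest change that had a single start and a match, in lower case with the match in capitals, 5′ to 3′ on the strand of the gene.
Insig1 (chr5:28071184-28071213, plus strand): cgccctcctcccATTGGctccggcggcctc
Tm7sf2 (chr19:6067880-6067909, minus strand): ctcccagcgctgATTGGctactgtgctggg
Mvd (chr8:122443432-122443461, minus strand): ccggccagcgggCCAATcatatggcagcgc
The box began 216, 47 and 27 bases before the start of Insig1, Tm7sf2 and Mvd. The sterol regulatory element in the form TCACNCCAC was in 1.26% of array genes and in 0 of the 15. An exact direct repeat 1, the consensus for PPARγ with RXR, was in 0.0519% of array genes and in 0 of the 670 genes with a risen probe and an entry. At shares this low in array genes, a count of 0 is likely in sets of this size and carries no information. Sites that differ by a letter or lie farther from the start were not searched. A match of letters is not a measured binding site, and no test was made of these shares.

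Genes of mitochondrial oxidation rose in number but by little. Fatty acid oxidation had 13 rises among 27 probes (median 0.55), led by Acadvl, the very long chain acyl-CoA dehydrogenase, which read 2677, 2821 and 3386 on day −2 and 6711, 6918 and 8040.2 on day 6 (1.29 ± 0.10). Pyruvate dehydrogenase and the TCA cycle had 12 rises among 33 probes (median 0.68), with the kinases Pdk4 (1.68 ± 0.13) and Pdk1 (1.31 ± 0.12), which inhibit pyruvate dehydrogenase, among the largest. Citrate synthase (Cs) rose by 0.70 ± 0.07. Subunits of oxidative phosphorylation had 14 rises among 65 probes (median 0.37), with cytochrome c (Cycs) at 1.47 ± 0.08 and Cyc1 at 1.01 ± 0.09, while Cox4i1 (0.36 ± 0.08) was not called. None of these 3 lists had a called fall. Branched-chain amino acid breakdown had 10 rises and no fall among 26 probes (median 0.79), including its first enzyme Bcat2 (1.30 ± 0.11), both E1 subunits of the keto acid dehydrogenase, Bckdha (1.00 ± 0.10) and Bckdhb (1.19 ± 0.14), and Aldh6a1 (1.73 ± 0.11). Antioxidant enzymes had 10 rises and 1 fall among 34 probes (median 0.49), with Mgst1 at 1.75 ± 0.12 and Sod2 at 1.06 ± 0.11, and Prdx4 falling by 0.38. The number of calls depended on the arrays in the fit. The 6 arrays alone gave 2 in each of the first 3 lists, 3 for branched-chain amino acids and 1 for antioxidant enzymes, and leaving out replicate 1 or 2 gave 8 and 7 for fatty acid oxidation, 8 and 8 for pyruvate dehydrogenase and the TCA cycle, 5 and 4 for oxidative phosphorylation, 7 and 6 for branched-chain amino acids and 3 and 3 for antioxidant enzymes. Leaving out replicate 3 gave 6 for oxidative phosphorylation and 5 for antioxidant enzymes.

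Insulin signalling and glucose transport had 2 rises among 24 probes (8.33% called, median 0.14). One was Slc2a4, the insulin-responsive transporter GLUT4, which read 31.6, 28.7 and 43.6 on day −2, below background, and 670.3, 655 and 601 on day 6, a ratio of at least 7.58-fold. The other was the glycogen synthase Gys1 (0.74 ± 0.12), called at 1 of its 3 probes, the others being below background. The insulin receptor Insr was not called (0.44 ± 0.10). Of the 12 probes for brown adipocyte markers 2 rose, Cox8b (at least 22.4-fold) and Cox7a1 (at least 18.4-fold), which are both muscle and heart type subunits of cytochrome oxidase. Cox8b read 24.9, 31.8 and 38.9 on day −2 and 1983, 1936 and 1769 on day 6. Ucp1, Cidea and Prdm16 were below background on all 6 arrays, so the 2 genes rose without detectable signal of the uncoupling protein.

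Falls were smaller. The largest was Mmp3, the matrix metalloproteinase stromelysin-1, which read 1456, 1377 and 1623 on day −2 and 311, 324 and 356 on day 6, a 4.50-fold fall (−2.17 ± 0.12, limma, adjusted p = 4.60e-15). Angpt2 (angiopoietin-2) followed with 762, 664 and 604 against 172, 227 and 167 (−1.85 ± 0.19), though its other probe was below background on all 6 arrays. Ptger1, a prostaglandin E2 receptor, read 848, 854 and 696 against 294, 245 and 191 (−1.73 ± 0.16). Chst2, a sulfotransferase, read 784, 808 and 571 against 251, 242 and 189 (−1.66 ± 0.09). None of these 4 genes had overlapping groups. By the fitted difference, which is uncertain for probes below background on day 6, the rest of the 10 largest were Cyp4f14 (at least 1.43-fold lower), Rgs16 (−1.53 ± 0.15), Alox5ap (at least 2.64-fold lower), Cobl (at least 1.38-fold lower), Serpina3g (−1.48 ± 0.13) and Cldn19 (at least 1.91-fold lower).

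Among the lists, mitosis had the most falls. Of the 72 probes for mitosis, 23 fell and none rose (31.9% called, median −0.74), in 18 genes. Birc5 (survivin) fell at all 3 of its probes, the brightest reading 2183, 2243 and 2549 on day −2 and 1019.9, 1018 and 1358 on day 6 (−1.05 ± 0.11, limma, adjusted p = 1.42e-07). The kinetochore subunit Spc24 read 1067, 1122 and 1277 against 483, 486 and 684 (−1.08 ± 0.13). Polo-like kinase 1 (Plk1) read 2533, 2592 and 2795 against 1392, 1214 and 1809 (−0.86 ± 0.12), and the activator of the anaphase-promoting complex Cdc20 fell by 0.77. For all 4 genes the signals of the 2 days did not overlap. Cyclin B1 (Ccnb1, −0.49 ± 0.12) and Cdk1 (−0.48 ± 0.12) were not called. Of the 62 probes for DNA replication, 12 fell and none rose (median −0.53), with the helicase subunits Mcm5 (−0.99 ± 0.11) and Mcm4 (−0.85 ± 0.11) and the hemimethylated DNA reader Uhrf1 (−0.86 ± 0.10). Pcna (−0.24 ± 0.12) and Rrm2 (−0.39 ± 0.16) were not called. These calls depended on the arrays in the fit. The fit of the 6 arrays alone called no probe of either list, without replicate 1 there was 1 call for mitosis and none for replication, and without replicate 2 there were 7 and 3, while the medians stayed between −0.60 and −0.83 for mitosis and between −0.44 and −0.60 for replication under all alternatives.

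Of the 50 mitosis genes on the array, 42 had a promoter entry and 30 of these held CCAAT (71.4%, against 39.4% of array genes). TTTGAA, the cell cycle homology region through which the DREAM complex represses mitotic genes, was in 14 of the 42 (33.3%) against 15.7% of array genes. The stretches around the CCAAT nearest to the start are shown for the 3 called genes with the largest fall, by the same rule as above.
Cdca8 (chr4:124936918-124936947, minus strand): cctaagacggcgatttgctATTGGctaggc
Mki67 (chr7:135716503-135716532, minus strand): tggccgcctggcCCAATcgcagcacttagc
Cenpa (chr5:30666788-30666817, plus strand): acctttattctcATTGGtttatctggatgt
The box began 11, 141 and 86 bases before the start of Cdca8, Mki67 and Cenpa. CCAAT was thus frequent both before the cholesterol genes, which rose, and before the mitosis genes, which fell. The other lists searched varied. CCAAT was in 61.1% of DNA replication genes with an entry, in 39.1% of those of oxidative phosphorylation and in 21.4% of those of secreted adipocyte proteins. TTTGAA was in 28.6% of the secreted adipocyte genes and in 13.9% of the DNA replication genes. Over all genes with a called probe and an entry, CCAAT was in 46.4% of those higher and in 46.2% of those lower on day 6. For TTTGAA these shares were 13.6% and 13.5%.

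The list of G1 cyclins and cell cycle inhibitors did not share this fall as a whole. Of 50 probes for G1 cyclins and cell cycle inhibitors, 4 rose and 1 fell, with a median of 0.01. Cdkn2c, the CDK4/6 inhibitor p18, rose at both its probes, the brighter reading 2075, 1846 and 2578 on day −2 and 4458, 4857 and 5908 on day 6 (1.23 ± 0.10), with no overlap. The retinoblastoma gene Rb1 rose by 0.93 ± 0.10 and Gadd45a by 0.64 ± 0.08. Trp53 (p53) fell by 0.62. Cyclin D1 (Ccnd1, −0.10 ± 0.07) and the inhibitor p21 (Cdkn1a, 0.34 ± 0.08) were not called. Nor were Cdk4 (−0.57, −0.51 and 0.11 at its probes) and cyclin E1 (Ccne1, −0.45), so the median joins members that leaned in opposite directions. Quantile normalization gave 4 rises and 3 falls in this list, and Benjamini-Hochberg adjustment 11 and 9.

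Of the 47 probes for the contractile and fibroblast cytoskeleton, 10 fell and none rose (21.3% called, median −0.45). Tropomyosin 1 (Tpm1) read 9718, 7941 and 9149 on day −2 and 5067, 4518 and 5416 on day 6 (−0.84 ± 0.09), with no overlap, and calponin 2 (Cnn2) fell by 0.80. Smooth muscle actin (Acta2) fell by 1.14 (log2) at 1 of its 3 probes, while its brightest was not called (−0.37 ± 0.13). The fit of the 6 arrays alone called none of this list, leaving out replicate 1 or 2 left 4 calls each and the fit without the block also gave 4. Preadipocyte and Wnt genes had 3 falls and 1 rise among 39 probes (10.3% called, median −0.17). Leaving out replicate 1 or 2 left 1 fall each, and the 6 arrays alone gave no call. Gata2, a factor that holds cells in the preadipocyte state, fell by 1.04, from 1466, 1378 and 1148 to 737, 636 and 569. Wnt5a fell by 0.60 and Twist2 by 0.59, while Wnt6 rose by 0.85 ± 0.10.

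Matrix genes moved in both directions. Matrix proteins and remodelling enzymes had 5 rises and 6 falls among 60 probes (median 0.06), and collagens and laminins 5 rises and no fall among 52 (median 0.01). Without replicate 1 or 2 the first list had 1 rise and 3 falls each, without replicate 3 it had 3 rises and 5 falls, and the second list had 3 rises each without replicate 1 or 3. With Benjamini-Hochberg adjustment the first list had 14 rises and 11 falls. These 2 medians lay near 0 and changed sign with the setting, between −0.05 and 0.14 for the first and between −0.03 and 0.06 for the second. Besides Mmp3, tenascin C (Tnc) fell by 1.27 at 1 of its 6 probes, the other 5 being below background, and Ccn1 (listed as CYR61) by 1.05 at 1 of 2. Osteopontin (Spp1) rose by 1.37 ± 0.15, dermatopontin (Dpt) by 1.08 ± 0.14 and lumican (Lum), whose signals overlapped between the days although every pair was higher, by 0.81 ± 0.13. Lamb3, a laminin chain, rose at least 2.62-fold, and the basement membrane collagen Col4a2 read 17337, 18376 and 16557 on day −2 and 30259, 33450 and 31529 on day 6 (0.87 ± 0.08). The interstitial collagens Col1a2 (0.10 ± 0.12) and Col3a1 (−0.02 ± 0.16) were not called.

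Interferon response genes had 3 rises and 3 falls among 38 probes (median −0.30, or −0.12 with probes below background set at their bounds). The MHC class I genes H2-K1 (1.52 ± 0.19) and H2-D1 (0.87 ± 0.07), whose probes can share signal with related class I genes, rose, and Psmb9 (at least 1.17-fold lower) and Ddx58 (−0.84 ± 0.12) were among the falls. Chemokines and inflammatory genes had 1 rise, Tlr4 (0.68 ± 0.10), and 1 fall, the adhesion molecule Vcam1 (−0.87 ± 0.09), among 35 probes (5.71% called, below the 6.24% of all probes). Endoplasmic reticulum folding and stress genes had 3 rises among 35 probes, including Xbp1 (0.68 ± 0.09), and Hspa5 (BiP) was not called (0.32 ± 0.16). This list had no rise in the 6 arrays alone or without replicate 2, and 1 without replicate 1. Interferon response genes had no called fall under any of these settings. Cytosolic ribosomal protein probes were called at 5.45%, 2 higher and 1 lower of 55 (1 and 2 with quantile normalization), with a median of −0.09, and can pick up related pseudogenes. Glucocorticoid-responsive genes had 7 rises and no fall among 21 probes (median 0.59), led by Hsd11b1, which regenerates active glucocorticoid, at 35.4-fold (5.15 ± 0.11). Fkbp5, a classical target of the glucocorticoid receptor, read 419, 536 and 400.2 on day −2 and 529, 482 and 451 on day 6, which overlap (0.12 ± 0.13, not called).

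**Figure D3:**
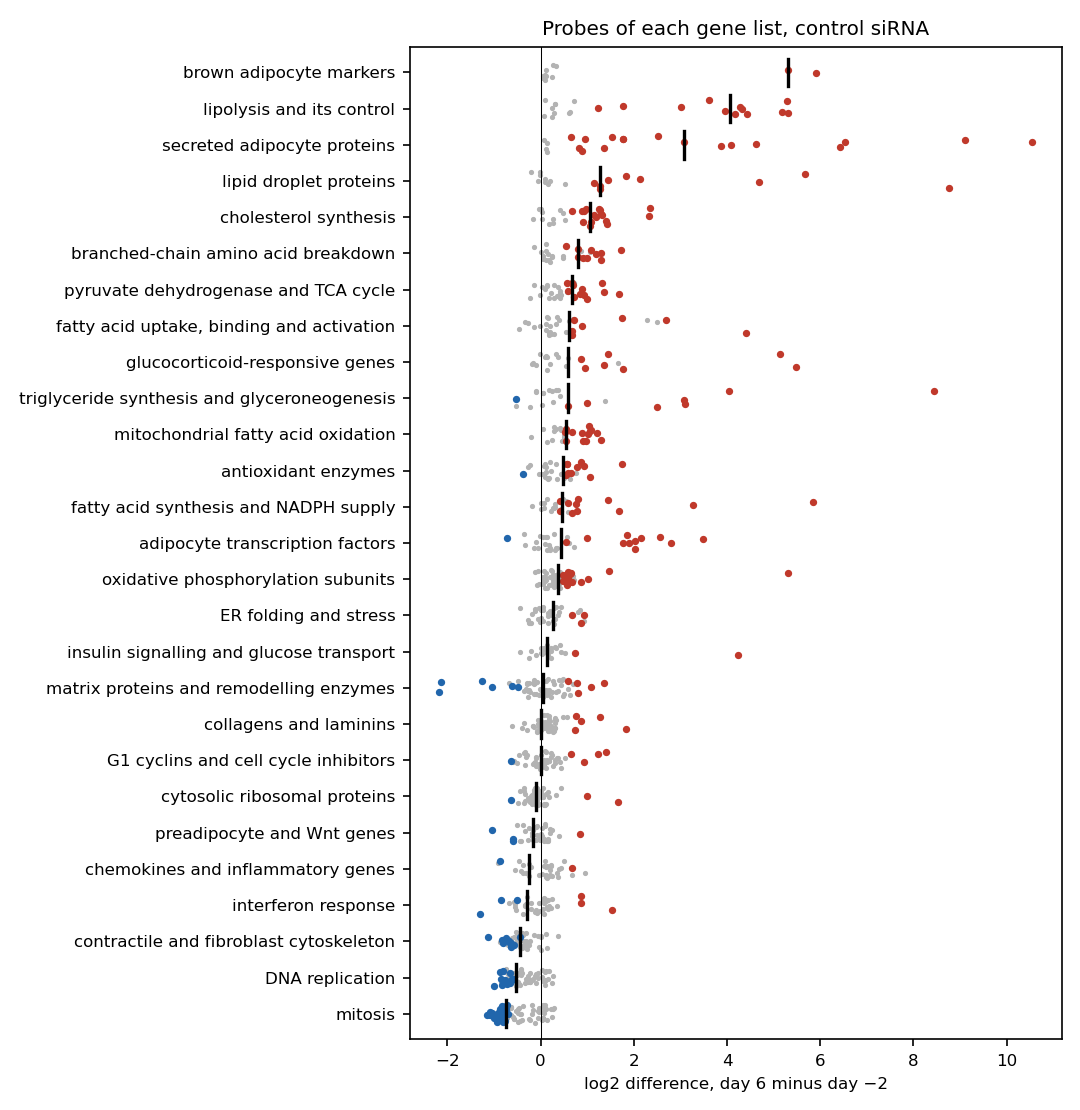
Log2 difference, day 6 minus day −2, of every probe in 27 gene lists under control siRNA, with called rises in red, called falls in blue, probes not called in grey and black bars at the median of the detected probes. Adipocyte and lipid lists lie to the right, with a median of 4.07 for lipolysis and of 5.31 for the 3 detected of 12 brown adipocyte probes (4.204 with bounds), and mitosis, DNA replication and the contractile cytoskeleton lie to the left with medians of −0.74, −0.53 and −0.45.

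The days between show how the end points were reached, as levels with no test. Under control siRNA the median mitosis probe stood at −1.05 relative to day −2 on day 0, at 0.65 on day 1 and 0.41 on day 2, and at −0.31 on day 3, before it reached −0.74 on day 6. DNA replication followed the same course, at −0.53 on day 0, 0.55 on day 1 and −0.53 on day 6. The small net fall between the ends therefore spans a dip, a surge and a second decline. Birc5 illustrates this with mean log2 signals (SD, n = 3) of 11.18 ± 0.12 on day −2, 10.10 ± 0.16 on day 0, 11.99 ± 0.22 on day 1 and 10.13 ± 0.24 on day 6. Matrix proteins and remodelling enzymes had a net median near 0 but stood at −1.17 on day 1 and −1.65 on day 2. Glucocorticoid-responsive genes stood at 1.71 on day 0, at 1.11 on day 1, at 1.93 on day 2 and at 0.42 on day 3. By the schedule above, dexamethasone was given before day 0 and insulin with rosiglitazone for 48 h from day 0. The list thus stayed high after the stated end of dexamethasone, and the cause was not tested. Fkbp5 had a mean log2 signal of 8.81 ± 0.23 on day −2, 12.31 ± 0.12 on day 0 and 8.93 ± 0.12 on day 6, so its 2 end points hide a large excursion.

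Rises differed in their timing as well. Cidec had a mean log2 signal of 4.97 ± 0.13 on day −2, 14.63 ± 0.23 on day 2 and 13.73 ± 0.20 on day 6, and was thus higher on day 2 than on day 6. Cfd was at 9.03 ± 0.15 on day 2 and reached 15.01 ± 0.14 on day 4. Cox8b stood at 5.32 ± 0.32 on day 2, close to its day −2 level of 4.97 ± 0.32, and at 10.89 ± 0.09 on day 6. Cholesterol synthesis had a median of −0.71 on day 0, 0.69 on day 2, 0.11 on day 3 and 0.91 on day 4.

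**Figure D4:**
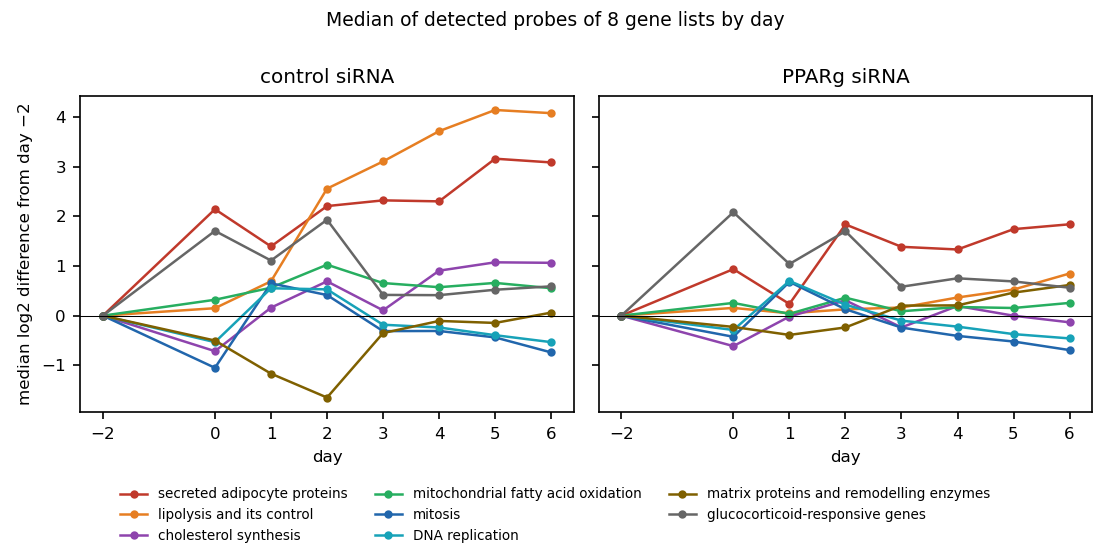
Median log2 difference from day −2 (y axis) of the detected probes of 8 gene lists on each day (x axis), under control siRNA (left) and PPARg siRNA (right). Under control siRNA lipolysis climbs to 4.07 on day 6 and cholesterol synthesis to 1.06, while under PPARg siRNA they end at 0.85 and −0.13, and mitosis ends at −0.74 and −0.69.

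Whether the control course differed from the course under PPARγ siRNA was tested as the difference between the 2 changes, day 6 minus day −2, in the same limma fit. It was called for 736 probes (2.99%), positive for 514 (2.09%) and negative for 222 (0.902%), and without the replicate block for 363. Leaving out replicate 1 or 2 gave 252 or 283 calls. The share of probes with a called difference varied widely between lists. Some lay near the 2.99% of all probes, such as cytosolic ribosomal proteins (1.82%), interferon response (2.63%) and endoplasmic reticulum folding and stress (2.86%). Cholesterol synthesis had the highest share, with 16 of 28 probes rising more under control siRNA and none less. Its median was 1.06 under control and −0.13 under PPARγ siRNA, where no probe of the list was called. Insig1 changed by 2.34 under control and by −0.12 under PPARγ siRNA, a difference of 2.45 (limma, adjusted p = 3.46e-11). Lipolysis had 10 of 22 probes with a positive difference, lipid droplet proteins 7 of 18, secreted adipocyte proteins 8 of 21 and oxidative phosphorylation 8 of 65, and none of these lists had a negative one.

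In contrast, none of the 72 mitosis probes, the 62 DNA replication probes or the 47 contractile cytoskeleton probes had a called difference. Their medians under PPARγ siRNA were −0.69, −0.46 and −0.42, with 21, 10 and 10 probes called lower there, against 23, 12 and 10 under control siRNA. For Birc5 the difference between the changes was −0.29 ± 0.15 and for Plk1 −0.07 ± 0.16. These p-values do not show that the changes were equal. Glucocorticoid-responsive genes were mixed, with 3 of 21 probes differing and medians of 0.59 and 0.56.

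Many of the largest rises were smaller under PPARγ siRNA but were not lost. There Cfd rose by 7.87, Adipoq by 7.05, Gpd1 by 6.17 and Cidec by 5.29, each of them called. Of the 21 probes for secreted adipocyte proteins, 11 were called higher under PPARγ siRNA, against 17 under control siRNA. Other genes rose under both siRNAs with no called difference. Lpl rose by 1.74 under control and 1.82 under PPARγ siRNA, a difference of −0.08 ± 0.14, Angptl4 differed by −0.07 and Col4a2 by 0.00 ± 0.11, none of which was called. The brightest Pparg probe rose in parallel, by 2.02 and 2.10, from the lower level that the knockdown had set. The other Pparg probes rose less under PPARγ siRNA, as mean log2 levels. Of these, 1 went from 7.10 to 9.27 under control and from 5.24 to 6.63 under PPARγ siRNA. The last was below background on day −2 under control siRNA. It went from 4.76 to 7.56 under control and from 4.76 to 5.15 under PPARγ siRNA. Matrix proteins and remodelling enzymes showed the opposite pattern to lipid genes, since 18 of 60 probes had a negative difference and none a positive one, with medians of 0.06 under control and 0.62 under PPARγ siRNA. Lum rose by 0.81 under control and by 2.68 under PPARγ siRNA (difference −1.88, limma, adjusted p = 1.22e-07). Mmp3 fell by 2.17 under control and changed by 0.67 under PPARγ siRNA.

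**Figure D5:**
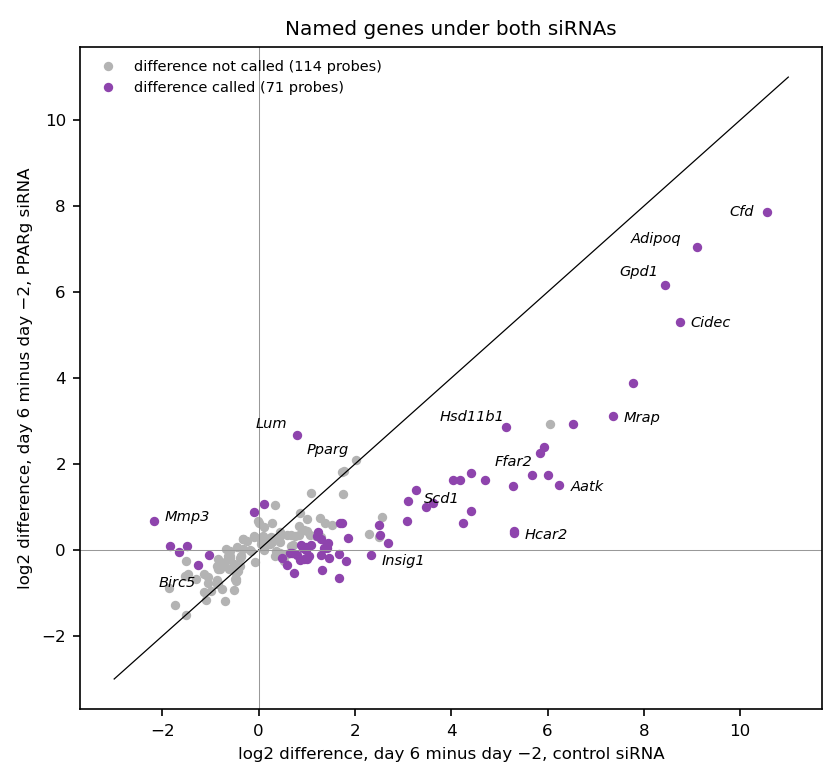
Log2 difference, day 6 minus day −2, of 185 named probes under control siRNA (x axis) and PPARg siRNA (y axis), with the line of equality in black and 71 probes whose difference between siRNAs was called in purple. Adipocyte genes such as Cfd and Cidec lie to the right of 0 and below the line, Pparg at its brightest probe lies on it, and Lum and Mmp3 lie above it.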

How the data were processed

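Total RNA was labelled as biotin cRNA and hybridized to Illumina BeadChips. The authors deposited un-normalized mean bead intensity per probe and array, summarized in BeadStudio 3.3.7, together with a detection score deposited as a fraction between 0 and 1, which was read as 1 minus the detection p-value. The authors deposited no normalized values that were used here, and their methods name rank-invariant normalization and an ANOVA with a batch term. Deposited intensities were background-corrected with limma 3.58.1 (R 4.3.3, normexp on detection p-values, offset 16), scaled on rank-invariant probes between the 50th and 90th percentile (rank tolerance 0.05) and taken to log2. Precision is limited by the 3 arrays per group. All 48 arrays entered 1 linear model in limma, in which every combination of siRNA and day had its own mean and replicate numbers were blocked (30 residual and 7.12 prior degrees of freedom), with Bonferroni adjustment over 24613 probes. Samples were grouped by their labels. The methods do not say what their batch was, and the replicate number was taken as the block here. Deviations of same-numbered day −2 and day 6 arrays correlated at 0.864, 0.756 and 0.920 over 9537 probes. Replicates 1 and 2 correlated as highly across numbers (0.792 and 0.748), so this pairing check sets replicate 3 apart but does not separate 1 from 2.

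Named genes were the 10 largest called rises and falls, a fixed set of defining genes, and up to 3 called genes per list and direction. The members and lists were chosen with earlier results of these data known. Probes were named through RefSeq symbols (18343), synonyms (4361) or the name on the array (1909). Data were simulated for day 6 against day −2 over all 24613 probes, with independent normal noise of the fitted spread around the model's own fitted values. There the fit called 10 of 50 probes changed by 0.5 (log2), 45 of 50 changed by 1, 50 of 50 changed by 2, 43 of 50 changed by −1 and no unchanged probe. Such data meet the assumptions of the fit, so they do not show how it behaves where these fail. Of 384 columns of per-sample values, 288 were not used. Alternatives were quantile normalization, no background correction, an offset of 50, leaving out dim probes, no block, smaller sets of arrays, Benjamini-Hochberg adjustment and leaving out each replicate. Values of some genes are not reported here.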

Additional observations from a re-analysis of the deposited data

Results flagged for a closer look

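The change from day −2 to day 6 differed between control and PPARγ siRNA for 20 of 36 genes, the largest changes and the cell type genes. The test was that of the difference itself in limma (Bonferroni adjusted over all probes), which called 2.99% of all probes. The largest changes were picked by the change under control siRNA, which is also part of the tested difference. Their share and directions were therefore favoured beforehand and are a description only. Values are log2, the change under control minus that under PPARγ siRNA. The 14 positive differences were Aatk 4.71, Ffar2 4.27, Mrap 4.24, BC054059 3.90, Slc2a4 3.60, Apoc1 3.58, Cidec 3.46, Plin1 3.07, Cfd 2.68, Lipe 2.53, Gpd1 2.28, Retn 2.18, Adipoq 2.05 and Cebpa 1.58. Each of these genes rose under control siRNA, and all but Slc2a4, Retn and Cebpa were also called higher under PPARγ siRNA. For probes below background on day −2, which include Cfd, Adipoq, Cidec and Aatk, the size of the difference is uncertain.

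The 6 negative differences were Mmp3 −2.84, Cyp4f14 −1.95, Chst2 −1.62, Serpina3g −1.58, Pdgfra −0.98 and Col1a2 −0.97. Of these, Mmp3, Cyp4f14, Chst2 and Serpina3g fell under control siRNA. Pdgfra, a receptor of mesenchymal progenitors, and the collagen chain Col1a2 were not called under control siRNA, where they changed by −0.10 and 0.10. The test did not pass the threshold for the other 16 genes.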

How the results depend on the processing

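More probes were called higher than lower under all alternatives, but the balance within some lists turned. Matrix proteins went from 5 rises and 6 falls to 14 and 11 with Benjamini-Hochberg adjustment and to 4 and 4 in the 24 control arrays, and ribosomal proteins from 2 and 1 to 1 and 2 with quantile normalization and 3 and 8 with Benjamini-Hochberg adjustment. Without the replicate block, the fit called 794 probes (599 higher, 195 lower) and 363 differences between siRNAs. The 6 arrays alone gave 339 (326 higher, 13 lower, the same numbers over 2-fold) and 1 list with more falls than rises in place of 7. Benjamini-Hochberg adjustment gave 4792 (2511 higher, 2281 lower) and 2567 differences between siRNAs. Quantile normalization gave 806 falls. Over 2-fold, no background correction gave 329 rises and 22 falls and an offset of 50 gave 44 falls. Leaving out 1 replicate gave 676 to 1108 calls, 560 to 807 higher and 116 to 301 lower, 51 to 84 falls over 2-fold, 252 to 532 differences between siRNAs and 4 to 7 lists with more falls. Of 121 named probes called, 60 lost the call in the 6 arrays alone, 40 without the block, 35, 31 and 14 without replicate 1, 2 and 3, and at most 5 under the other settings. The 6-array and leave-one-out fits use fewer arrays, and the cause of the other losses was not tested. Signals near background limit the size of falls, and the detection floor limits that of rises.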

Other observations

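Further groups of genes, some of which the lists also hold (Hp, for example), were chosen after their values had been seen, so their counts are descriptions with no test. Of 10 probes for acute phase proteins, 8 rose in 7 genes, among them the orosomucoids Orm1 (5.62) and Orm2 (4.07) and both probes of haptoglobin, Hp (4.08 and 4.62). Of 19 probes for peroxisome genes, 8 rose in 6 genes, including Pex11a, which drives peroxisome division (2.93 at the probe measured on both days, at least 4.13-fold at the other), and the transporter Abcd2 (2.46, and at least 5.38-fold). Of 14 probes for ETS factors and feedback inhibitors of ERK signalling, 5 fell in 4 genes. These were Etv1, which fell by 1.22 at 1 of its 3 probes, Etv4, which fell by 1.19, Etv5, which was at least 1.73-fold lower, and Il17rd, which fell by 1.14 and 1.08 at its probes. The group did not fall as a whole. The feedback genes Dusp6 (0.006 at the probe measured on both days) and Spry4 (0.60) were not called. Of the 14 probes, 6 were above background on no array. Of the 1537 calls, 1291 were in none of the lists.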
